A study of Mus musculus with 18 samples.

Results

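The Kcn genes encode the pore-forming and accessory subunits of potassium channels. All protein-coding genes whose symbol begins with Kcn were taken, which gave 94 of the 54547 gene identifiers in each count table, in 21 subfamilies on 19 chromosomes. The study sequenced RNA of medial prefrontal cortex dissected from C57BL6/J mice, of which 9 ate chow with PLX5622 (1200 mg/kg) and 9 ate control chow. Titles call the PLX5622 animals microglia-depleted. PLX5622 inhibits CSF1R, the receptor that microglia need to survive. The labels place 21 days of diet before 44 days of every-other-day access to 15% ethanol, with tissue taken 24 hours later. Mice were at postnatal day 100. The same treatment text stands on all 18 samples and names PLX5622 on the controls too, so the diets were told apart by the title and the chow label. That ethanol was given to both diets rests on this text alone, and the abbreviation Sal in the names of all 18 tables is not explained by the labels. No contrast of ethanol with its absence was made here. Each library holds RNA of whole dissected tissue, so a transcript found in several cell types gives a single value.

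Potassium channels let potassium leave or enter the cell and so set the resting potential, end the action potential and shape firing. Voltage-gated pores open on depolarisation, inward rectifiers pass current best near rest, K2P channels carry background leak, and a further class opens on intracellular calcium or sodium. In cortex most members are neuronal, while Kir4.1 serves potassium uptake by astrocytes and THIK-1, encoded by Kcnk13, is the main background potassium channel of microglia. Alcohol acts directly on several of these channels, among them BK channels and the G-protein-gated inward rectifiers.

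Potassium channel RNA differed little between the diets, with Kcnk13 the tested member farthest from 0. Of the 94 members, 60 had enough counts to be tested, and 0 were called with PLX5622 by edgeR's quasi-likelihood test at an adjusted p under 0.05, against 0.398% of all 11051 genes tested. By direction, 0 members were lower (0.353% of all genes) and 0 higher (0.0452%). DESeq2 called 0 members (0.353% of all genes, 0.308% lower and 0.0452% higher) and limma-voom 0 (0.498%, of which 0.371% lower and 0.127% higher). At an unadjusted p under 0.05 edgeR gave 1 member (6.79% of all genes), DESeq2 1 (4.79%) and limma-voom 2 (6.75%). The lowest adjusted p of any member was 0.562. A log2 fold change here is PLX5622 over control, so a negative value is lower with PLX5622.

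The median log2 fold change of the 60 members was -0.03, and that of all tested genes was 0.0001. Members ran from -0.44 to 0.23, with 40 below 0 and 20 above (66.7% below), where 49.97% of all genes lay below. All members were read from the same 18 libraries, so their signs are not independent, and this split was not tested. A total of 45 members were closer to 0 than 0.1 on the log2 scale, as were 64.3% of all genes. The data bound the size of any difference for most members. The 95% interval of the log2 fold change stayed within 0.32 of 0 for 45 members (58.6% of all genes), and that of the fold change within 1.5-fold for 59 (93.2%), the exception to the wider bound being Kcnk13. PLX5622 and control libraries overlapped in all 60 tested members, while they did not overlap in 0.199% of all genes.

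**Figure D1:**
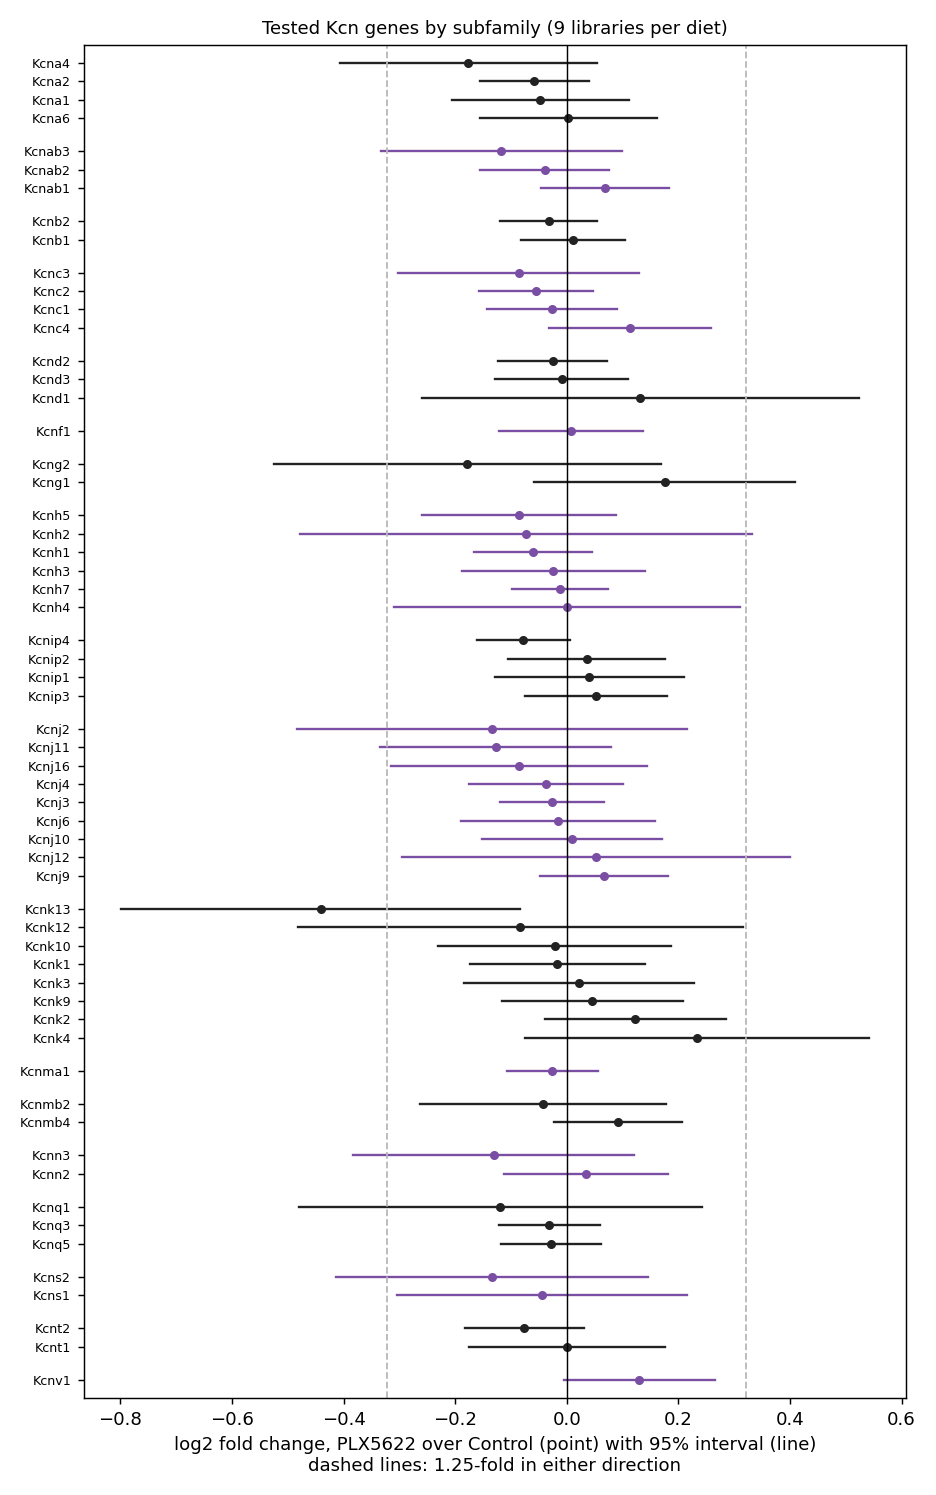
Log2 fold change of 59 of the 60 tested Kcn genes, PLX5622 over Control, with points for the estimate, lines for the 95% interval and colours that alternate by subfamily. Only the interval of Kcnk13 leaves out 0. The dashed lines stand at 0.32 on either side of 0.

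Depth ran over 990136 to 1742680 counts per library (median 1384979), and Kcn genes took 1.368% ± 0.045 of them with PLX5622 and 1.399% ± 0.066 in controls (SD, n = 9 each). Microglial RNA was reduced. All 14 tested genes of 16 on a microglial marker list were called lower, with a median log2 fold change of -1.79. The summed level of all 16 was 136 to 250 CPM (counts per 1000000, scaled by the trimmed mean of M values, TMM) with PLX5622 and 514 to 738 CPM in controls. Less RNA per cell and fewer cells cannot be told apart in such tissue. Lists of astrocyte (12 tested), oligodendrocyte (10), oligodendrocyte precursor (8), endothelial (8), mural (7), excitatory (8), inhibitory (9), general neuronal (8), striatal (4) and blood (2) markers had 0 calls. Over all genes 0.398% were called. Border macrophage markers were all under the count filter, and summed to 2.69 to 11.2 CPM with PLX5622 and 21.4 to 34.9 CPM in controls. Of the choroid plexus list only Ttr was tested, at a log2 fold change of 1.49 (adjusted p = 0.283), and the list summed to 8.73 to 41.5 CPM with PLX5622 and 3.76 to 13.4 CPM in controls. Its part in the Kcn values was not tested. Of the Kcn genes known from that tissue, Kcnj13 had 37 counts with PLX5622 and 34 in controls, and Kcne2, itself on that list, had 2 and 5.

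**Figure D2:**
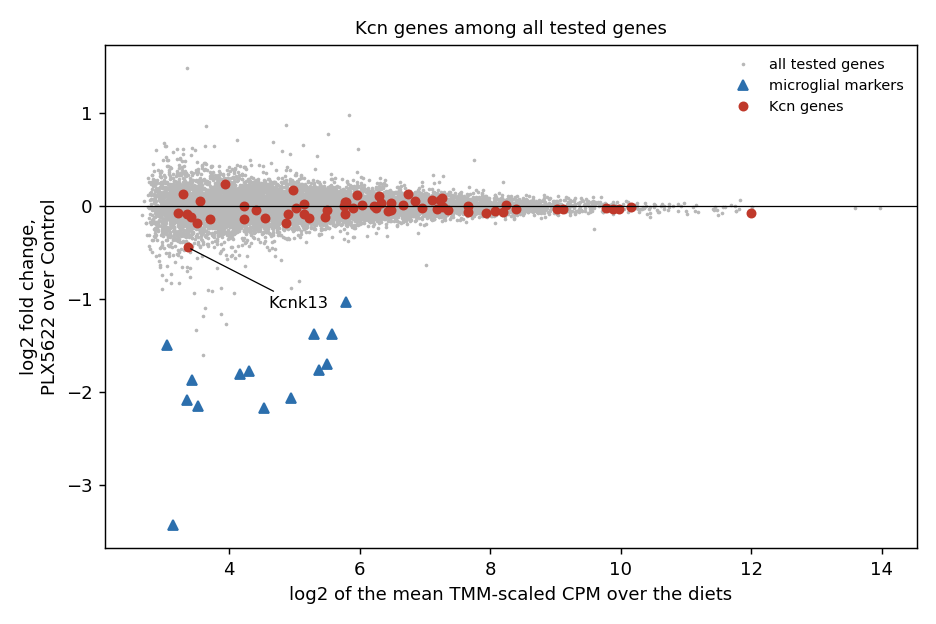
Log2 fold change of PLX5622 over Control against log2 mean CPM for all 11051 tested genes (grey), the 14 tested microglial markers (blue triangles) and the 60 tested Kcn genes (red circles). The microglial markers lie between -3.43 and -1.03, and the Kcn genes lie in the band of all genes, with Kcnk13 at its lower side.

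Since the microglial markers were lower with PLX5622, channel genes reported in microglia are given first. Kcnk13 (ENSMUSG00000045404.16) lies on chromosome 12 from 99964499 to 100062682 on the plus strand of GRCm38 in GENCODE M21. Its level was 5.24, 8.47 and 10.6 CPM (lowest, median and highest) with PLX5622, against 8.96, 11.4 and 16.0 CPM in controls. All 9 PLX5622 libraries lay below the control median and 5 below every control library, yet the ranges of the diets overlapped. The means were 8.73 ± 1.61 CPM with PLX5622 and 11.8 ± 2.3 CPM in controls (SD, n = 9 each), from 110 and 144 counts. The log2 fold change was -0.44 ± 0.18 (SE), or 0.736-fold with a 95% interval of 0.575 to 0.944. Its unadjusted p was 0.0163 and its adjusted p 0.562 (edgeR), so it did not pass over all genes, and the adjusted p lay between 0.425 and 0.954 over the alternatives. On the log2 scale the interval ran from -0.80 to -0.08, while the tested microglial markers lay between -3.43 and -1.03. The difference between Kcnk13 and the markers was not tested. Without PLX5622 25, which had the lowest value, the log2 fold change was -0.36 with an unadjusted p of 0.0537.

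Kcnj2, which encodes the inward rectifier Kir2.1 of microglia, vessels and neurons, had 8.73, 12.6 and 19.3 CPM with PLX5622 and 7.15, 13.7 and 18.2 CPM in controls (lowest, median and highest). The ranges coincided almost entirely, and the log2 fold change was -0.13 ± 0.18 (SE, adjusted p = 0.958). Kcnn3, a small-conductance calcium-activated channel, was at -0.13 ± 0.13, and Kcnma1 at -0.03 ± 0.04. All 4 tested members of this list were thus below 0, as were 66.7% of tested members and 49.97% of all genes, and 0 were called (0.398% of all genes). Kcnma1 averaged 1011 CPM in controls, where the microglial marker list summed to a mean of 571 CPM. Levels of different genes do not measure the share of a cell type, and the source of Kcnma1 RNA was not tested. The remaining 4 members of the list fell under the count filter and were fitted without it, over 24284 genes. Kcnk6, the K2P channel TWIK-2 of macrophages and microglia, had 48 counts with PLX5622 and 60 in controls, 3.70 and 4.99 CPM (exact permutation test of the mean, two-sided p = 0.315, adjusted p = 0.700 over all genes by edgeR). Kcna5, a Kv1 pore of macrophages and vessels, had 26 counts and 28 counts (exact permutation p = 0.439). Kcna3, the Kv1.3 pore of T cells and activated microglia, had 4 counts with PLX5622 and 2 in controls (exact permutation p = 0.490). Kcnn4, the intermediate-conductance channel of the same cells, had 4 and 3 (exact permutation p = 0.929). At these depths a difference in Kcna3 or Kcnn4 was not detectable.

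Glial inward rectifiers and leak channels showed values on both sides of 0. Kcnj10 (ENSMUSG00000044708.5, chromosome 1, 172341210 to 172374085, plus strand) encodes Kir4.1, which takes up potassium into astrocytes. It had 55.7, 64.5 and 72.6 CPM (lowest, median and highest) with PLX5622 and 52.6, 66.8 and 81.5 CPM in controls. The PLX5622 libraries lay inside the control range. The log2 fold change was 0.01 ± 0.08 (SE, adjusted p = 0.998), with a fold interval of 0.900 to 1.13. Kcnj16, whose product Kir5.1 joins Kir4.1 in heteromeric channels, had 18.1, 30.2 and 34.0 CPM with PLX5622 and 21.4, 30.2 and 38.2 CPM in controls, with a log2 fold change of -0.09 ± 0.12. Their medians were equal to the precision given, while PLX5622 35 lay below every control and 3 controls above every PLX5622 library. Among K2P channels, Kcnk1 (TWIK-1) was at -0.02 ± 0.08 and Kcnk2, the mechanosensitive channel TREK-1, at 0.12 ± 0.08. Kcnk2 had 50.8, 63.1 and 74.8 CPM with PLX5622 and 52.9, 59.8 and 69.0 CPM in controls. Only 1 PLX5622 library lay below the control median of Kcnk2, yet the adjusted p was 0.843. The highest log2 fold change of all tested members belonged to Kcnk4, the mechanosensitive neuronal channel TRAAK, and was looked up after its value was seen. Kcnk4 had 12.3, 15.9 and 23.4 CPM with PLX5622 and 9.15, 13.8 and 18.6 CPM in controls, at 0.23 ± 0.15 (SE, adjusted p = 0.841), and a gene on its strand overlaps 13.4% of its span. Of the 7 members on the list of glial genes other than microglial ones, 6 were tested, 3 were below 0, 3 above and 0 called (0.398% of all genes).

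**Figure D3:**
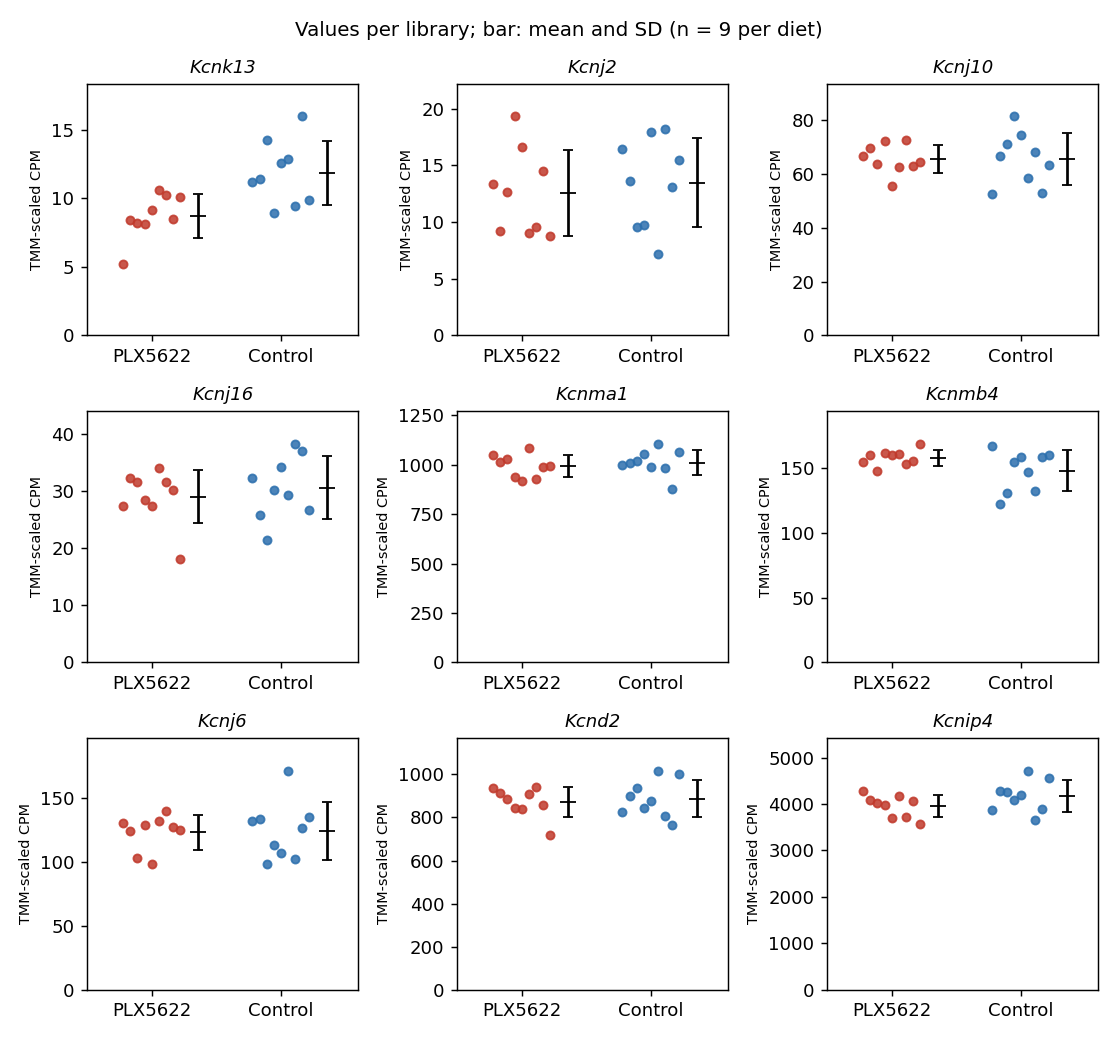
TMM-scaled CPM of 9 Kcn genes in each library, PLX5622 (red) left of Control (blue), with points in the order of the animal numbers and bars for mean and SD (n = 9 per diet). The axes start at 0, and the diets overlap in all 9 genes. In Kcnk13, 5 PLX5622 libraries lie below every control.

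Members that alcohol is known to act on also kept to a narrow band. Of 17 on that list 13 were tested and 0 called (0.398% of all genes), with 10 below 0, 3 above and a median log2 fold change of -0.03. Kcnma1 (ENSMUSG00000063142.15, chromosome 14, 23289431 to 24014491, minus strand) encodes the pore of BK channels, which open on calcium and depolarisation together. It had 918, 992 and 1084 CPM (lowest, median and highest) with PLX5622 and 875, 1011 and 1107 CPM in controls. These rest on 12681 and 12364 counts, and the fold interval was 0.928 to 1.04 around a log2 fold change of -0.03 ± 0.04 (SE, adjusted p = 0.966). The PLX5622 libraries all lay within the control range.

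Kcnmb4 encodes the neuronal BK accessory subunit, which governs how BK channels adapt to alcohol in mice. Its values were 148, 160 and 169 CPM with PLX5622 and 122, 155 and 168 CPM in controls. The spread was smaller with PLX5622, with an SD of 6.12 CPM against 15.9 CPM in controls, a difference that was not tested. The log2 fold change was 0.09 ± 0.06 (SE, adjusted p = 0.830), and 7 of 9 PLX5622 libraries were at or above the control median.

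The G-protein-gated inward rectifiers carry slow inhibition downstream of GABA-B and opioid receptors and are opened by alcohol. Kcnj3 (GIRK1) had 312, 332 and 354 CPM with PLX5622 and 302, 332 and 376 CPM in controls. Kcnj6 (GIRK2) had 98.9, 128 and 140 CPM with PLX5622 and 98.4, 127 and 172 CPM in controls. Kcnj9 (GIRK3) had 131, 155 and 176 CPM with PLX5622 and 131, 144 and 163 CPM in controls. The GIRK genes overlapped broadly between the diets, at log2 fold changes of -0.03 ± 0.05, -0.02 ± 0.08 and 0.07 ± 0.06 in that order (SE). Kcnj5 (GIRK4), mainly a channel of the heart, had 2 counts with PLX5622 and 1 in controls. The highest control value of Kcnj6 came from control 8, and without control 8 its log2 fold change was 0.05.

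Small-conductance SK channels open on calcium and contribute to the medium-duration hyperpolarisation after spikes. Kcnn2 had 72.6, 88.2 and 115 CPM with PLX5622 and 72.8, 89.7 and 98.4 CPM in controls, with a log2 fold change of 0.03 ± 0.07. Kcnn1 was below the count filter with 23 counts with PLX5622 and 29 in controls (log2 -0.37 ± 0.42 without the filter, adjusted p = 0.825). All 9 PLX5622 libraries of Kcnn1 lay below its control median, at these few counts. Sodium-activated channels slow repetitive firing, and Kcnt2 (Slick) was at -0.08 ± 0.05 (adjusted p = 0.862). Kcnq3 contributes to the M-current, a brake on excitability closed by muscarinic receptors. It had 437, 510 and 571 CPM with PLX5622 and 462, 526 and 581 CPM in controls, with broad overlap and a fold interval of 0.919 to 1.04. All 4 tested Kcnq genes were below 0, as were 66.7% of tested members and 49.97% of all genes. The Kcnq value nearest 0 was -3.9e-05, the Kcnq median log2 fold change was -0.03, and 0 were called (0.398% of all genes).

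Voltage-gated pores of the Kv1 to Kv4 groups made up 13 of the tested members. Of the Kcna genes, which set spike threshold and axonal release, 4 of 8 were tested and had a median log2 fold change of -0.05. Kcna4, an inactivating axonal pore, was the one with the smallest p, at -0.18 ± 0.12 (SE, adjusted p = 0.838), with 21.2, 27.3 and 31.7 CPM with PLX5622 and 23.2, 29.6 and 44.4 CPM in controls. Of its PLX5622 libraries 7 of 9 lay below the control median and 1 below every control. Both Kcnb genes, the delayed rectifiers of soma and dendrite, were tested, with Kcnb2 at -0.03 ± 0.04. The Kcnc pores allow fast spiking in parvalbumin interneurons. Kcnc1 had 124, 144 and 161 CPM with PLX5622 and 137, 144 and 159 CPM in controls, and Kcnc2 had 231, 264 and 300 CPM with PLX5622 and 256, 271 and 310 CPM in controls. In each, 4 PLX5622 libraries lay below every control library, while the log2 fold changes were -0.03 ± 0.06 and -0.06 ± 0.05 with adjusted p of 0.981 and 0.914. Kcnc4 was at 0.11 ± 0.07 (adjusted p = 0.830).

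Kcnd2, the Kv4.2 pore of the dendritic A-type current, had 718, 884 and 939 CPM with PLX5622 and 767, 875 and 1017 CPM in controls, with a log2 fold change of -0.03 ± 0.05. Kcnd1 was at 0.13 ± 0.20 from 129 and 113 counts. The calcium-binding KChIP proteins escort Kv4 pores to the membrane. Kcnip4 (ENSMUSG00000029088.16, chromosome 5, 48389502 to 49524907, minus strand) held 50423 counts with PLX5622 and 50901 in controls, 28.9% and 29.7% of all Kcn counts. Its level was 3571, 4031 and 4279 CPM with PLX5622 and 3661, 4193 and 4718 CPM in controls, and 8 of 9 PLX5622 libraries were below the control median. The log2 fold change was -0.08 ± 0.04 (SE, adjusted p = 0.770). Kcnip3, a KChIP that also acts as the transcriptional repressor DREAM, was at 0.05 ± 0.06. The cytosolic Kvβ subunits of Kv1 pores had Kcnab1 at 135.6, 139 and 152 CPM with PLX5622 and 121, 135 and 160 CPM in controls (log2 0.07 ± 0.06, adjusted p = 0.898). None of the PLX5622 libraries of Kcnab1 lay below its control median, and genes on its strand overlap 42.5% of its span.

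The silent subunits form no channel alone and modify Kv2 pores. Kcnv1 (Kv8.1) had 88.9, 109 and 130 CPM with PLX5622 and 84.2, 105 and 111 CPM in controls. Of its PLX5622 libraries 6 lay at or above the control median, and its log2 fold change was 0.13 ± 0.07 (SE, adjusted p = 0.756). Kcng1 was at 0.18 ± 0.12, Kcns2 at -0.13 ± 0.14 and Kcnf1 at 0.01 ± 0.06. The members of this class therefore did not share a direction, and none was called (0.398% of all genes). Kcnh1, of the ether-à-go-go group, had 172, 199 and 219.8 CPM with PLX5622 and 189, 200.3 and 240.2 CPM in controls (log2 -0.06 ± 0.05). All 6 tested Kcnh genes of 8 were below 0 by edgeR, as were 66.7% of tested members and 49.97% of all genes. The Kcnh values ran from -0.09 to -0.0002. The value nearest 0 was that of Kcnh4, which was 0.0022 by DESeq2 and 0.0092 by limma-voom.

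Metabolic and vascular channels were the last class. Kcnj11 (Kir6.2), the pore of the ATP-sensitive channel, had 23.4, 34.9 and 42.9 CPM with PLX5622 and 33.4, 39.3 and 47.0 CPM in controls. In 3 PLX5622 libraries it lay below every control, and its log2 fold change was -0.13 ± 0.10 (SE, adjusted p = 0.891). Kcnj8 (Kir6.1), the ATP-sensitive pore of pericytes, was below the count filter with 59 counts with PLX5622 and 49 in controls, at 0.21 ± 0.29 without it (adjusted p = 0.881).

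Summed over each subfamily, the PLX5622 mean was 0.949 to 1.10 times the control mean in the 18 subfamilies with a tested member. The sum of Kcnip genes was 4208 ± 236 CPM with PLX5622 and 4418 ± 341 CPM in controls, and that of Kcnj genes 862 ± 21 CPM and 868 ± 39 CPM (SD, n = 9 each). Kcnip4 alone averaged 3955 CPM with PLX5622 and 4172 CPM in controls, while the 3 other Kcnip genes had log2 fold changes above 0. Kcnk genes summed to 306 ± 16 CPM with PLX5622 and 301 ± 13 CPM in controls, and Kcnq genes to 1666 ± 95 CPM and 1695 ± 118 CPM. Subfamily medians of the log2 fold change ran from -0.09 in Kcns to 0.13 in Kcnv, which has 1 tested gene. All members together summed to 13674 ± 518 CPM with PLX5622 and 14006 ± 764 CPM in controls.

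**Figure D4:**
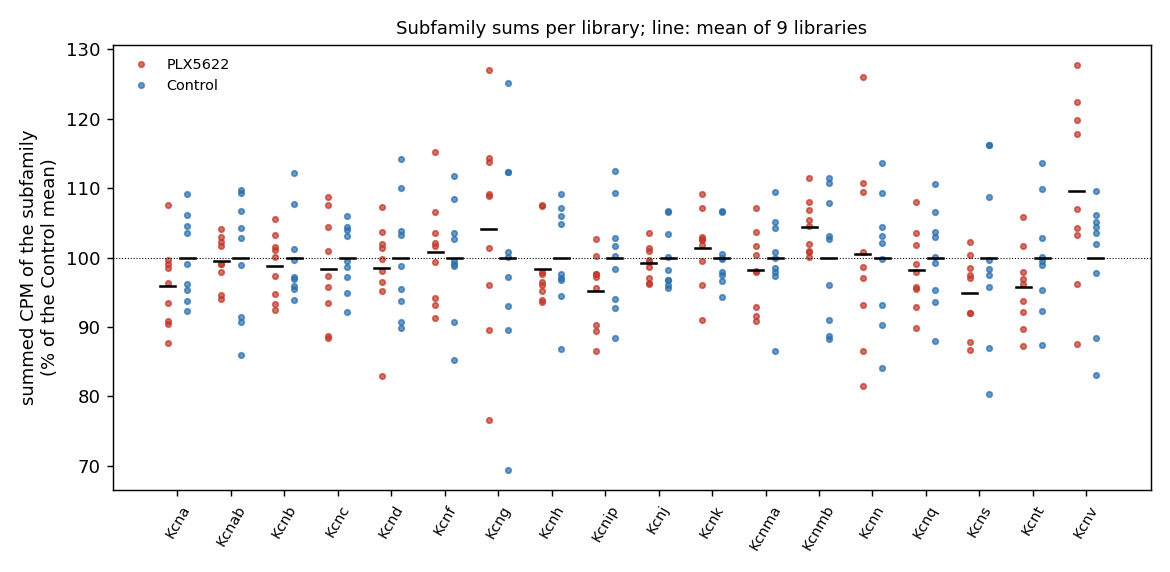
Summed CPM of each Kcn subfamily with a tested gene, per library, as a percentage of the Control mean, with PLX5622 (red) left of Control (blue) and lines for the means of 9 libraries. The PLX5622 means lie between 0.949 and 1.10 times the Control means, and the libraries of the diets overlap in every subfamily shown.

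The 34 members that were not tested fell into 27 with 1 to 170 counts over all libraries and 7 with 0. The 7 were Kcna7, Kcnj1, Kcnj15, Kcnk16, Kcnk18, Kcnmb3 and Kcnv2. A count of 0 among 24953442 allows up to 0.120 CPM (3 counts, counting error only). All Kcne genes, Kcnrg and Kcnu1 were among the 27. The fit without the count filter gave 87 members a value and called 0 of them, against 0.461% of all genes in it, and DESeq2 without the filter called 0 (0.442%). At an unadjusted p under 0.05 the edgeR fit without the filter gave 4 members, against 6.63% of all genes. These were Kcnk13, Kcnip4, Kcnv1 and Kcna10, named here after their values were seen, and Kcna10 had 0 counts with PLX5622 and 3 in controls.

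Levels of different genes were also divided by gene length, and the order depended on which length was used. Whether counts scale with length in these libraries was not tested. Per kb of exon, Kcnip4 had 1090 CPM with PLX5622 and 1150 in controls, and Kcnf1, a gene of a single exon, had 21.3 and 21.2. Per kb of gene span, Kcnip4 had 3.48 with PLX5622 and 3.67 in controls, and Kcnf1 again 21.3 and 21.2. The 18 members that span over 200 kb held 73.5% of Kcn counts with PLX5622 and 74.1% in controls. Across the 87 members with counts, the control CPM went with the span at a Spearman's rho of 0.59 and with the exonic length at 0.65, as a description of these shared libraries.

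Several members are genomic neighbours. Kcnj9 and Kcnj10 lie 11.9 kb apart on chromosome 1 and had log2 fold changes of 0.07 and 0.01. Kcnj16 and Kcnj2 lie 38.2 kb apart on chromosome 11, at -0.09 and -0.13. On chromosome 3, Kcna3 had 6 counts in all while Kcna2, 63.1 kb away, averaged 288 CPM with PLX5622 and 300.1 CPM in controls.

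Genes under other names whose proteins assemble with, anchor or regulate potassium channels were also read. Of 29 such partner genes 25 were tested and 0 called (0.398% of all genes), with 13 below 0, 12 above and a median log2 fold change of -0.01. The smallest p belonged to Vapb, an endoplasmic reticulum protein that anchors Kv2 clusters, at 104 ± 11 CPM with PLX5622 and 92.0 ± 9.2 CPM in controls (SD, n = 9 each, log2 0.17 ± 0.07, adjusted p = 0.575). Akap9, a kinase scaffold of Kv7 channels, was at -0.11 ± 0.06 with all 9 PLX5622 libraries below its control median (adjusted p = 0.734), and Crbn, the cereblon protein that holds BK channels in the endoplasmic reticulum, at 0.12 ± 0.08. Of 14 genes for potassium pumps and cotransporters 11 were tested and 0 called (0.398% of all genes), with a median of -0.01. The sodium pump subunits Atp1b2 and Atp1b3 were at 0.10 ± 0.07 (adjusted p = 0.853) and -0.10 ± 0.07 (adjusted p = 0.854).

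The animal numbers in the titles run from 25 to 35 with PLX5622 and from 2 to 11 in controls, and some genes of these libraries follow the number. In a fit with diet and the position of the number within its diet, 0 of the 60 members were called on position, against 0.308% of all genes, and 3 had an unadjusted p under 0.05, against 9.27% of all genes. Slopes ran from -0.04 to 0.05 (log2 per position). Kcna6, singled out after its value was seen, had the lowest adjusted p, 0.241, at -0.04 per position. The numbers of the diets do not overlap, so diet cannot be told apart from whatever else goes with them.

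Libraries differed in how often they were extreme. Within the controls, control 8 was the highest for 16 of the 60 members (26.7%) and control 10 the lowest for 15 (25.0%). Over all genes these shares were 15.5% and 10.7%. With PLX5622, library 25 was the highest for 12 members and library 28 the lowest for 10, against 10.6% and 14.02% of all genes. The coefficient of variation of a member had a median of 11.3% with PLX5622 and 10.7% in controls.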

How the data were processed

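The 18 deposited tables hold whole-number read counts per Ensembl gene, 1 table per library. RNA was fragmented, copied with a template-switching oligo and read as single ends, per the labels' protocols. In the submitters' processing notes stand HTSeq 0.11.0 and Bowtie2 2.3.4.3, then R 3.5.1, FastQC 0.11.8 and DESeq2 1.10.1, with builds mm10 and GRCm38.p6 and no roles. Levels per length are uncertain, since the strand setting, the feature counted and the annotation release were not given in the sources used here.

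Identifiers were matched without version to GENCODE M21 (GRCm38) for 53620 of 54547, and the rest held 0.0467% of counts. A gene on the same strand covers over 10% of the span of 2 members. Overlap with genes on the other strand was not measured, and would matter if reads were counted without regard to strand. Counts were tested with edgeR 4.0.16 in R 4.3.3 over all 18 libraries, after filterByExpr (minimum count 10, minimum total 15) and TMM scaling. The quasi-likelihood fit was robust, and p-values were adjusted by Benjamini-Hochberg over all genes tested. Intervals use the standard error, taken as the log2 fold change divided by the root of F, and the fit's degrees of freedom. Alternatives were DESeq2 1.42.0, limma-voom 3.58.1, 3 other scalings, 2 other count filters, another threshold, a position covariate, 1 surrogate variable from sva 3.50.0 and leaving out libraries. Exact tests ran over all 48620 group assignments, as 4 comparisons.

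Groups and animal numbers come from the titles, and each number was treated as a separate animal. The labels do not say that numbers are separate animals, so p-values measure the spread between these samples. In these libraries 1 CPM is about 1 to 2 counts. Members and lists were chosen with earlier results of these data known. The text names, in each subfamily, the tested gene with the smallest p, 23 further fixed genes, every called member, and from each of the partner and transporter lists the called genes and the 3 with the smallest p. Some genes that this rule covers are not reported here. Promoter sequences were not used.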

Additional observations from a re-analysis of the deposited data

Results flagged for a closer look

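In 8 of 62 sets of 9 libraries, 1 library stood apart from its diet by the ratio of its gap to the range. The ratio was above Dixon's 95% critical value, which chance passes in about 1 of 20 independent, normally distributed sets. All sets were read from the same libraries and are not independent, so the count of 8 cannot be judged by that rate. Control 8 was high for Kcnab1, at 160 CPM against 121 to 140 CPM in the other controls, for Kcnh1, at 240.2 CPM against 189 to 215 CPM, and for Kcnj6, at 172 CPM against 98.4 to 135 CPM. PLX5622 35 was low for Kcnd2, at 718 CPM against 841 to 939 CPM in the other PLX5622 libraries, and for Kcnj16, at 18.1 CPM against 27.3 to 34.0 CPM. PLX5622 32 was low for Kcng1 at 21.2 CPM against 30.7 to 40.3 CPM. PLX5622 26 was low for Kcnip3 at 96.6 CPM against 113 to 125 CPM. PLX5622 25 was low for Kcnk13 at 5.24 CPM against 8.14 to 10.6 CPM.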

How the results depend on the processing

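The count of Kcn genes called was 0 in each direction under every alternative run. The median log2 fold change of tested members stayed between -0.0432 and -0.0085 with 1 library left out. None of the 36 named members crossed the threshold under any alternative, the lowest adjusted p being 0.425, for Kcnk13 with 1 surrogate variable.

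Over all genes, 39 were called lower and 5 higher. The higher count was 14 with limma-voom, 17 with the position covariate, 11 with 1 surrogate variable, 8 without control 8 and PLX5622 28, and 10 at an adjusted p under 0.1. At a mean of at least 50 counts 8 genes were lower and 0 higher, and without a count filter 92 and 20. With 1 library left out, 38 to 50 genes were lower and 2 to 13 higher.

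Among the 36 named members, signs changed only in those within 0.034 of 0. Without control 8 and PLX5622 28 the values were 0.0010 for Kcnb2, 0.0077 for Kcnd2, -0.0221 for Kcnj10, 0.0484 for Kcnj6 and 0.0012 for Kcnma1. With 1 surrogate variable Kcnk1 was 0.0129. With 1 library left out, ranges were -0.0496 to 0.0066 for Kcnd2, -0.0203 to 0.0294 for Kcnf1, -0.0308 to 0.0510 for Kcnj10, -0.0524 to 0.0545 for Kcnj6, -0.0566 to 0.0313 for Kcnk1 and -0.0053 to 0.0714 for Kcnn2. The causes were not tested. No paired analysis was possible because the replicate numbers of the diets do not overlap.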
